A study of Mus musculus with 2 samples.

Results

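The cytochrome P450 genes were described in 2 rhabdoid tumors (RT) of the mouse. Members were the protein-coding genes whose symbol consists of Cyp, a family number, a subfamily letter and a gene number, without the 3 Cyp26 genes of retinoic acid breakdown. This rule found 90 genes among the 55416 genes of the count table, of which 21928 were protein-coding. Gene expression had been measured by bulk poly(A) RNA-seq in heterozygous Dppa3-cre::Smarcb1 Fl/+ mice on a C57BL/6 background. Cre was knocked into Dppa3, a gene active in primordial germ cells, and removed 1 floxed allele of Smarcb1, which encodes a subunit of SWI/SNF, a complex that moves nucleosomes. The other allele of such animals is intact at first, and when it was lost in these tumors was not given. One group was a tumor labelled intracranial at the trigeminal nerve and the other a tumor labelled extracranial, facial and maxillar, and both were classified as MYC. Each group was 1 library of 1 tumor, no age was given, and both tumors carried the same alleles, with no untreated or normal tissue beside them.

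P450 enzymes are heme proteins that insert an oxygen atom into their substrate, with electrons handed over by a redox partner, P450 oxidoreductase in the endoplasmic reticulum and ferredoxin in mitochondria. A conserved cysteine near the end of the protein holds the heme iron. Families differ in their work: some make steroid hormones, bile acids and active vitamin D, others shorten the life of fatty acid signals, and large tandem families, best known from liver, gut and the lining of nose and airway, clear foreign compounds.

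The coding sequence around the heme cysteine is shown for the members that differed most between the tumors and for Cyp27a1, the most abundant member per length in the library labelled extracranial. It was read from the transcripts of GENCODE M21, and capitals mark the cysteine codon within 57 bases. A stretch of this kind, defined by an aromatic residue, a glycine, the cysteine and a further glycine at fixed spacing, was matched in 88 of 90 members and not in Cyp20a1, an enzyme with no known substrate, or Cyp3a59. The codon was TGC in 53 of the 88 and TGT in 35.
Cyp2f2: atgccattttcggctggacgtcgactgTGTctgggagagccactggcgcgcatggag
Cyp2a5: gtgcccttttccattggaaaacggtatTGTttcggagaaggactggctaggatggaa
Cyp2a4: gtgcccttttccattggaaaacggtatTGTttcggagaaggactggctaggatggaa
Cyp2s1: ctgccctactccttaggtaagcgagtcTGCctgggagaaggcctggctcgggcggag
Cyp4f39: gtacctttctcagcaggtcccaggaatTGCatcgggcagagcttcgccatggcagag
Cyp1b1: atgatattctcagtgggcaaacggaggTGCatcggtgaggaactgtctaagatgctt
Cyp3a13: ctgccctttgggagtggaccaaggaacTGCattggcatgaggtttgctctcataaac
Cyp2b10: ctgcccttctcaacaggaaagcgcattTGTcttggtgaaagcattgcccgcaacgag
Cyp2c65: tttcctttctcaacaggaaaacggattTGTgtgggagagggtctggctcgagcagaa
Cyp2c66: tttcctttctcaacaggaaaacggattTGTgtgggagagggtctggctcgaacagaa
Cyp11a1: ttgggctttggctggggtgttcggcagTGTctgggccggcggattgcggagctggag
Cyp27a1: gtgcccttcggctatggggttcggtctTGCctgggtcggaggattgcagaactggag
Cyp2a4 and Cyp2a5 were identical over these 57 bases, and Cyp2c65 and Cyp2c66 differed at 1 of them. Such pairs limit what short reads can assign. Of all 72-base windows, the read length used, in the Cyp2a4 transcripts 22.4% also occurred in Cyp2a5, and 16.9% of those in Cyp2a5 occurred in Cyp2a4. Of the windows of Cyp2c65, 12.2% occurred in Cyp2c66. Counts of these pairs are therefore uncertain gene by gene, while Cyp2f2, Cyp2s1, Cyp4f39, Cyp1b1, Cyp3a13 and Cyp27a1 shared no window with another gene.

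The libraries held 34545846 counts (labelled intracranial) and 26915696 counts (labelled extracranial). Levels are given as CPM, the usual unit of counts over library size, of the library scaled by the trimmed mean of M-values (TMM), with exact 95% intervals that cover counting error only. A count of 0 allows up to 3 counts, which corresponded to 0.0863 CPM and 0.112 CPM. Smarcb1 transcript was present in both, with 365 counts (10.5 CPM) and 530 counts (19.8 CPM), and bulk counts cannot tell tumor cells from other cells. The study reported loss of Smarcb1 protein by staining in an intracranial and an extracranial tumor of this model. The libraries did not resemble each other in cell type markers. The library labelled intracranial held 19470.1 CPM over 10 keratinocyte markers and 2616 CPM over 11 markers of nasal and airway gland or secretory cells, against 3.10 and 19.9 CPM in the library labelled extracranial, although its label names a nerve. Exchanged labels and epithelium taken along with the tumor cannot be told apart from these values, and every direction given here follows the labels as they stand. The 7 neuron markers summed to 70.7 and 69.7 CPM but went both ways, with Tubb3 at 629 and 118 counts and Stmn2 at 713 and 1275, and none was called.

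With 1 library per location there was no replicate check and no test between locations. Ratios compare these 2 libraries. A member was called where the whole 95% interval of its ratio lay beyond 4-fold. Of the 90 members, 33 had no count in either library, 24 had 1 to 9 counts in all, and 33 had 10 or more and were given a ratio. The library labelled intracranial held more than 3 counts for 41 members and the library labelled extracranial for 24, with 22 in common, 19 in the first alone and 2 in the second alone. The first library is also the deeper one, and no share over all genes stands beside these numbers. They therefore describe detection only and are no result particular to P450 genes.

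Of the 90 members 10 (11.1%) were called higher in the library labelled intracranial, against 4.9% of all protein-coding genes of the table. They were Cyp2f2, Cyp2a5, Cyp2a4, Cyp2s1, Cyp4f39, Cyp1b1, Cyp3a13, Cyp2c65, Cyp2b10 and Cyp2c66. In the other direction 1 of 90 (1.11%), Cyp11a1, was called, against 1.51% of protein-coding genes. Over genes with 10 or more counts, the percentages called were 5.41 and 1.78, and the members' 30.3% and 3.03% of 33. That filter lets a gene in through the library where it is high: 11 of the 33 were at or under 3 counts in 1 library, always the one labelled extracranial, and 8 of these 11 were among the 10 calls. The median log2 ratio, extracranial over intracranial, was -1.16 over the 33 members and -0.04 over all genes with 10 or more counts. In sum the members held 370.5 CPM and 251.5 CPM. The 10 called members made up 44.3% of the members' counts in the library labelled intracranial, compared with 1.53% in the other. These 10 were picked by the call for their higher level in the former library. The direction of the gap between these shares follows from that choice and is no separate result. Whether a lower level reflects fewer cells of a type or less RNA per cell cannot be told apart in bulk tissue.

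**Figure D1:**
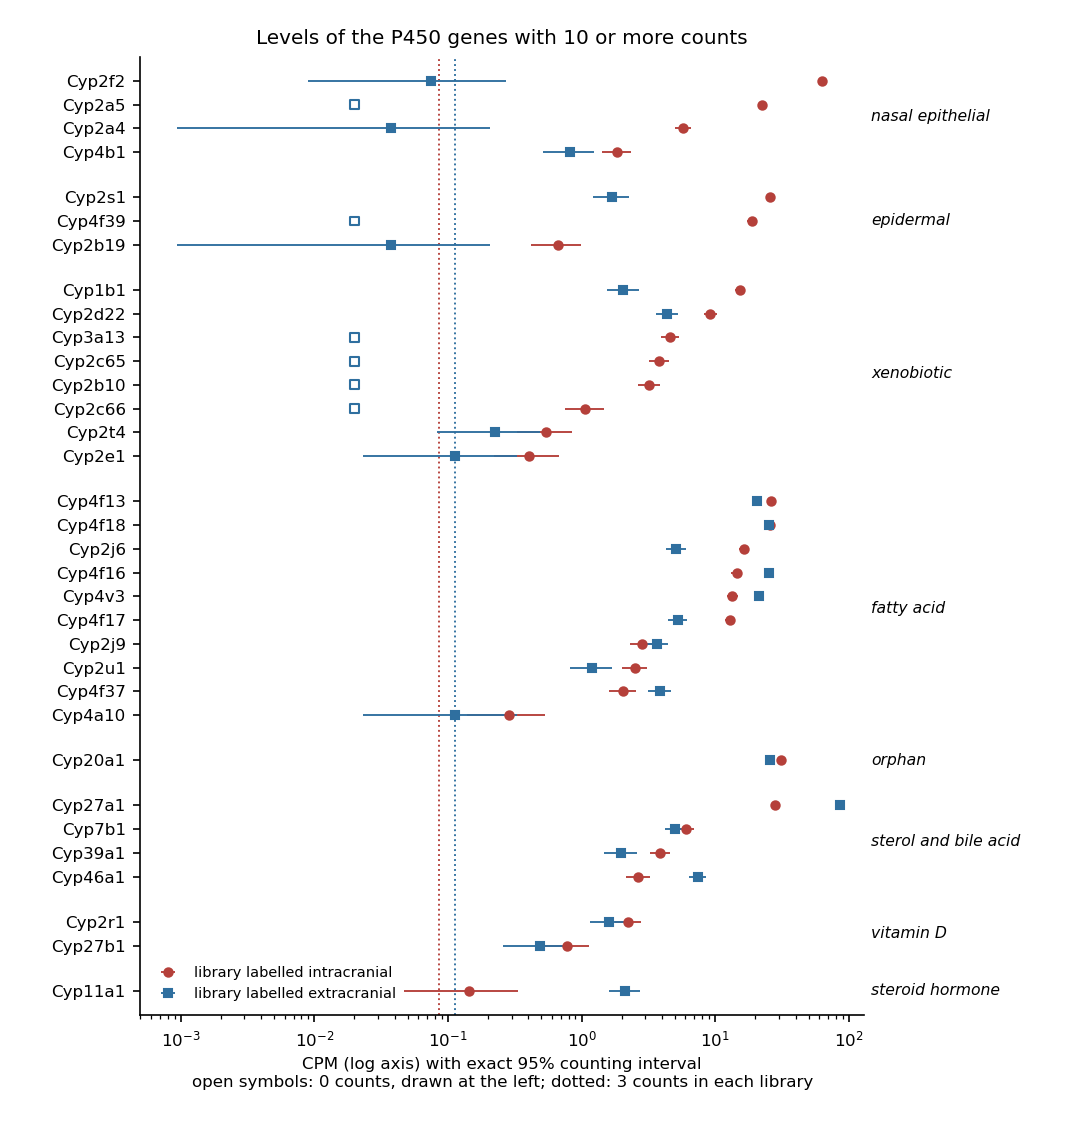
Level in CPM (log axis) of the 33 P450 genes with 10 or more counts in the library labelled intracranial (red circles) and the library labelled extracranial (blue squares), with exact 95% counting intervals. Open squares stand for 0 counts and dotted lines for 3 counts. The nasal epithelial and epidermal genes lie apart in the 2 libraries, while Cyp4f18 has 25.7 and 25.3 CPM.

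The members known from nasal and airway epithelium showed the widest gap. Cyp2f2, which oxidizes naphthalene and related small compounds in airway secretory cells, had 2195 counts in the library labelled intracranial against 2, or 63.2 and 0.0747 CPM. The ratio was 845-fold (interval 234 to 6984). Cyp2a5, a coumarin and nicotine oxidizing enzyme of olfactory mucosa and liver, had 781 and 0 counts, at least 200.5-fold higher if the 0 is set to the floor of 3 counts, while the exact interval, which adds the counting error of both libraries, ended at 163-fold. Cyp2a4, its near copy and a testosterone hydroxylase, had 200 counts and 1 count, a ratio of 154-fold (27.3 to 6114). In these 3 genes the library labelled extracranial was under the floor, so that the ratios of Cyp2f2 and Cyp2a4 rest on 2 counts and 1 count and are not on the footing of the bound for Cyp2a5. With all 3 set to the floor, the log2 ratios were -9.14 for Cyp2f2, -7.65 for Cyp2a5 and -5.68 for Cyp2a4. Cyp4b1, a P450 of lung and airway that activates several protoxins, had 64 and 22 counts, 1.84 and 0.822 CPM, and its log2 ratio of -1.16 (-1.93 to -0.45) was not called. Cyp2g1, an enzyme of olfactory mucosa, had 9 and 0 counts, too few for a ratio by the count minimum. The 5 genes together held 93.5 and 0.934 CPM. Per kilobase of exon, Cyp2f2 was the most abundant member in the library labelled intracranial, at 31.2 CPM per kb against 10.8 for Cyp2a5 and 3.31 for Cyp2a4. In the library labelled extracranial Cyp2f2 was at 0.0369 CPM per kb.

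Among the 3 members of skin and squamous epithelium, 2 were called higher in the library labelled intracranial, beside 4.9% of all protein-coding genes. Cyp4f39, which hydroxylates very long fatty acids for the lipid barrier of the epidermis, had 654 and 0 counts, 18.8 CPM against none, at least 168-fold more at the floor, with the interval ending at 136-fold. Cyp2s1, an enzyme of skin and airway epithelium, had 896 and 45 counts, 25.8 and 1.68 CPM, a ratio of 15.3-fold (11.4 to 21.2). It was thus above the floor in both tumors. Cyp2b19, the keratinocyte epoxygenase of arachidonic acid, had 23 counts and 1 count, and the interval of its log2 ratio, -9.51 to -1.52, reached inside 4-fold.

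The called members of these 2 groups were higher in the same library as most keratinocyte and gland markers. With 2 libraries a shared direction is no measure of likeness, and the called xenobiotic members had it too. Of 10 keratinocyte markers, 8 were called higher in the library labelled intracranial, and 6 of the 10 were at 0 in the other library. Among the 8 were Krt13 (366709 and 5 counts), Krt4 (199691 and 9), Krt5 (25883 and 0), Krt1 (457 and 0) and Trp63 (1284 and 0). Krt10 (428 and 67) and Ivl (11 and 0) were not called. Of 11 nasal and airway gland or secretory markers, 8 were called in the same direction and 7 were at 0 in the library labelled extracranial. Muc5b, the main airway mucin, had 83812 and 0 counts and Bpifb1, a secreted airway protein, 4428 and 0, whereas Aqp5 had 653 and 529. Scgb1a1, which defines the club cells that are known for Cyp2f2, had 4 and 0 counts. Of 7 ciliated cell markers, 5 had 10 or more counts and none was called. The 7 summed to 96.9 and 33.4 CPM, mostly from Tppp3 (87.1 and 25.7 CPM), but went both ways. Cfap126 (52 and 67 counts) leaned to the library labelled extracranial, and Ccdc39 (197 and 97) and Rsph1 (59 and 14) to the other. Foxj1 (32 and 29 counts) was unresolved in direction. Of 6 olfactory neuron markers 1 was called and the sum was 14.6 and 8.74 CPM. Of 5 salivary gland markers 2 were called, with sums of 32.1 and 2.20 CPM. Neutrophil markers summed to 706 and 58.6 CPM, with 4 of 8 called. S100a8 (258 and 0.336 CPM) and S100a9 (416 and 0.486 CPM) held most of the first sum. Csf3r went the other way with 19.9 and 57.6 CPM, and Ly6g, Elane and Mpo had 4 counts or fewer. The part of these cell types in the P450 result was not tested.

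**Figure D2:**
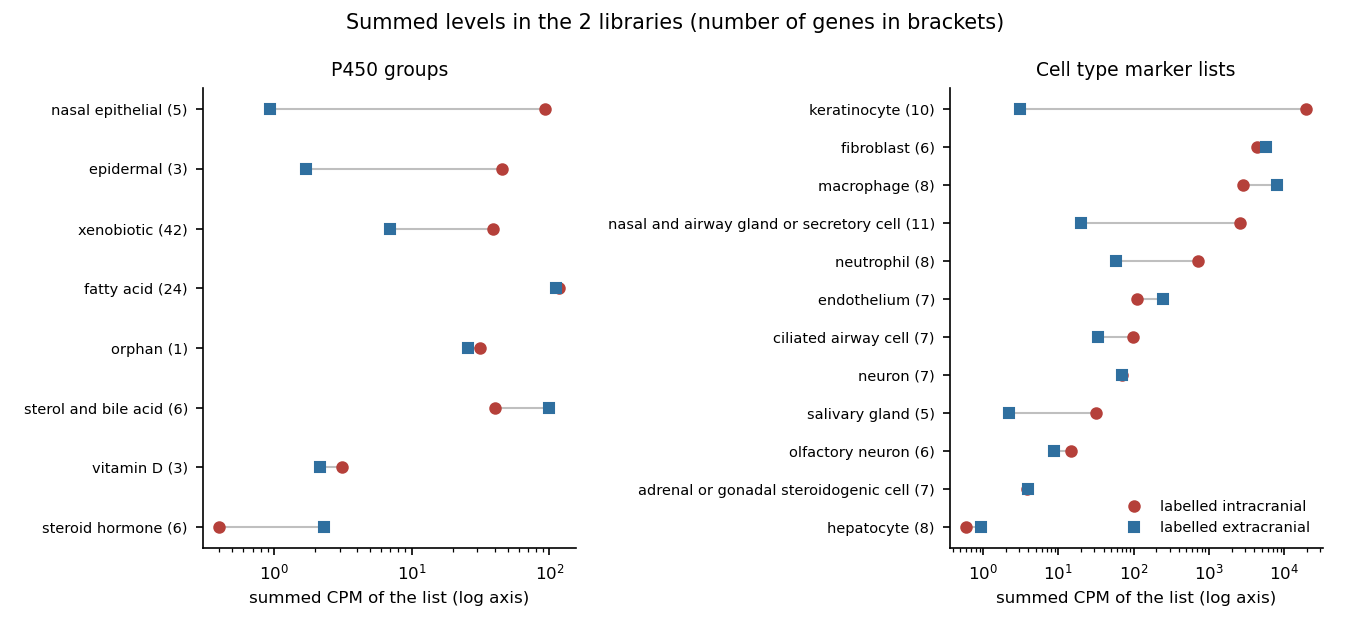
Summed CPM (log axis) of the 8 P450 groups (left) and of 12 cell type marker lists (right) in the library labelled intracranial (red circles) and the library labelled extracranial (blue squares), with the number of genes in brackets and no error bars, since each sum is 1 library. The sums of the nasal epithelial and epidermal P450 genes and of the keratinocyte and gland markers are higher in the library labelled intracranial. Those of the sterol P450 genes and macrophage markers are higher in the other. The sterol sum, 40.6 and 99.7 CPM, is mostly Cyp27a1 (27.9 and 85.3 CPM). Cyp39a1 and Cyp7b1 lean the other way, with log2 ratios of -0.96 and -0.29.

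The position of the genes was examined next, because P450 genes often stand in tandem. On chromosome 7, 13 members from Cyp2s1 to Cyp2t4 form 1 cluster, with neighbours less than 1 Mb apart in GENCODE M21. Of these, 5 were called higher in the library labelled intracranial (Cyp2s1, Cyp2b10, Cyp2a4, Cyp2a5 and Cyp2f2), beside 4.9% of all protein-coding genes of the table. The cluster held 4239 and 56 counts, and most of the former came from Cyp2f2, Cyp2s1 and Cyp2a5. Between them lay members with no count at all, Cyp2b9, Cyp2b23, Cyp2a22 and Cyp2a12, and Cyp2b13 with 5 counts and 1 count. The 5 other protein-coding genes inside the cluster, Vmn1r184, Vmn1r185, Nlrp9c, Nlrp9a and Nlrp4a, had 0 counts in both libraries. The pseudogene Cyp2a21-ps, no member, had 115 and 0 counts. On chromosome 17 the 8 Cyp4f genes behaved differently: Cyp4f39 was the single call, and the zinc finger genes among them, Zfp871, Zfp811, Zfp799 and Zfp870, had log2 ratios of -0.39 to 0.23. On chromosome 19, 14 Cyp2c genes from Cyp2c55 to Cyp2c70 form 1 cluster. Of these, 10 had no count, and Cyp2c65 and Cyp2c66, which are neighbours, were the only 2 above the floor in either library. Cyp2c23, on the same chromosome outside the cluster, had no count either.

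**Figure D3:**
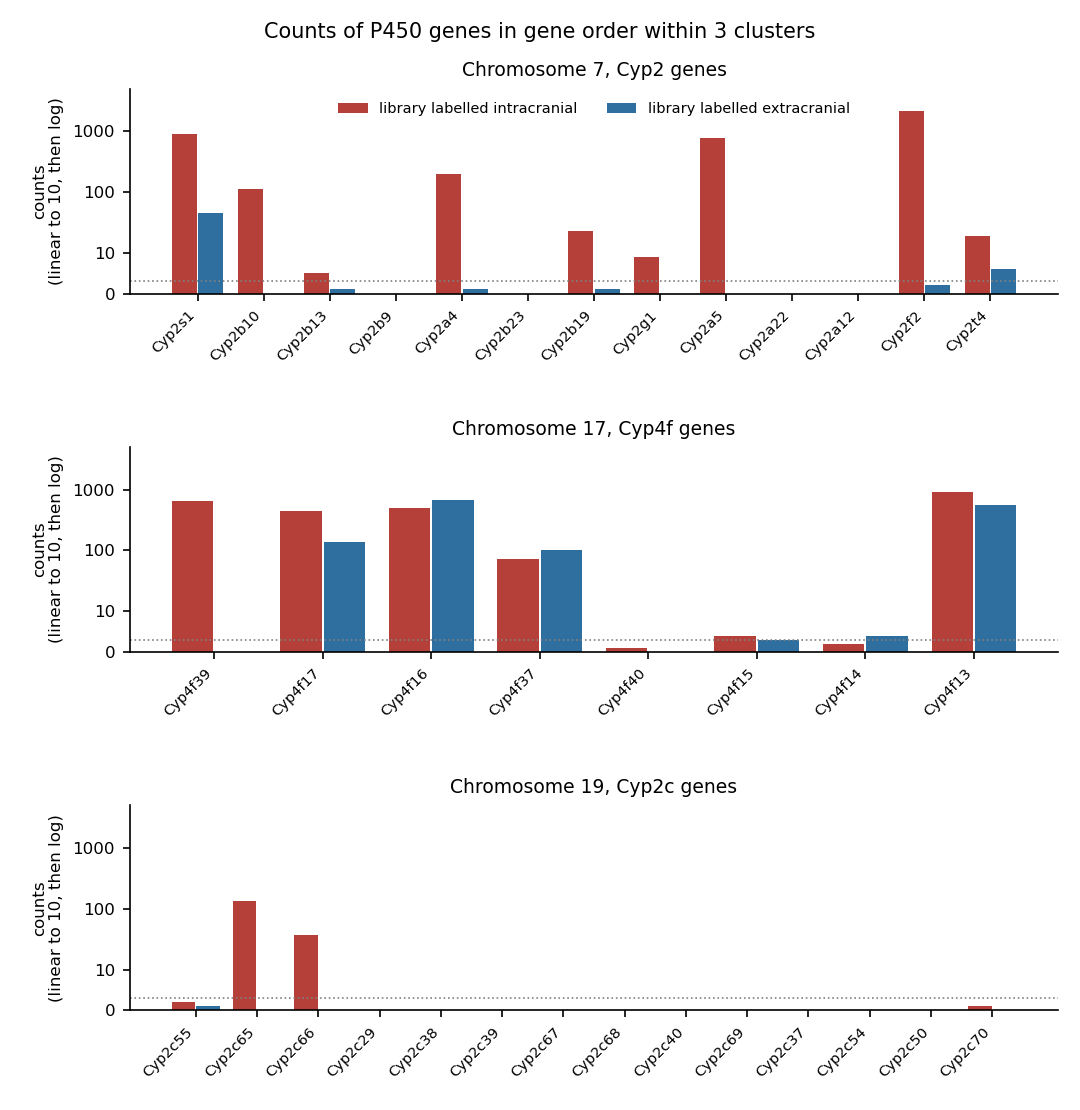
Counts per gene (linear to 10, then log) in gene order for 3 clusters, with red bars for the library labelled intracranial, blue bars for the library labelled extracranial and a dotted line at 3 counts. Called genes stand among genes at 0 in the chromosome 7 cluster. Cyp4f39 is the single call among 5 genes with 10 or more counts in the chromosome 17 cluster. Cyp2c65 and Cyp2c66 are the 2 genes above the floor in the chromosome 19 cluster.

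Cyp2a4 and Cyp2a5 are near copies called in the same direction, with counts that are uncertain gene by gene. The 100 bases before their start sites are shown from RefSeq windows of build GRCm38.p6, beside those of Cyp1b1 and Cyp4f39. Whether these promoters had a part in the levels was not tested. Capitals mark TATAAA in the first pair, the TATA box, and GCGTG or its complement in the other pair, the core of the element bound by the aryl hydrocarbon receptor (AHR).
Cyp2a4, chr7:26307092-26307191, plus strand: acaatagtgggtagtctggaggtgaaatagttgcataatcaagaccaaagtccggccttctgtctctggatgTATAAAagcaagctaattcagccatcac
Cyp2a5, chr7:26835239-26835338, plus strand: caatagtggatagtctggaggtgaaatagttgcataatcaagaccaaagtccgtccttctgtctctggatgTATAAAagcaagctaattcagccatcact
Cyp1b1, chr17:79715062-79715161, minus strand: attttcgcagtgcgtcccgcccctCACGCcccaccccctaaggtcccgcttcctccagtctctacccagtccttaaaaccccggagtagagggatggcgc
Cyp4f39, chr17:32452623-32452722, plus strand: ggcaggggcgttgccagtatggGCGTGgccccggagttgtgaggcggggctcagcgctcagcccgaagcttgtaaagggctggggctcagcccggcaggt
Aligned on the TATA box without gaps, the Cyp2a4 and Cyp2a5 windows differed at 2 of the 100 bases shown and at 5 of 299 aligned bases overall. Windows of 300 bases, 250 before the start and 50 after, were matched for 69 of the 90 members, 79 windows in all. Searched on both strands, TATAAA occurred in 38% of them and in 13.6% of all 32851 windows, and GCGTG in 20.3% against 32.4%. A match describes the letters and not a bound site.

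The 42 members grouped as xenobiotic were mostly without reads: 25 had no count and 8 had 10 or more. Of the 42, 5 were called higher in the library labelled intracranial, beside 4.9% of all protein-coding genes of the table. Cyp1b1, which oxidizes estradiol and aromatic hydrocarbons and is a classical AHR target, had 535 and 55 counts, 15.4 and 2.06 CPM, a ratio of 7.49-fold (5.67 to 10.1). Cyp3a13, a drug oxidase of gut and liver, had 160 and 0 counts, at least 41.1-fold higher at the floor (interval end 33.0-fold). Cyp2c65 had 133 and 0 counts (at least 34.1-fold, interval end 27.4-fold) and Cyp2c66 had 37 and 0 (at least 9.50-fold, interval end 7.35-fold), both arachidonic acid oxidases of gut epithelium. Cyp2b10, in liver the classical target of the receptor CAR, had 111 and 0 counts, at least 28.5-fold higher (interval end 22.8-fold). All of the called genes but Cyp1b1 were at 0 in the library labelled extracranial and passed the count minimum through the other library alone. Cyp2d22 had 319 and 117 counts, and its log2 ratio was -1.07 (-1.39 to -0.76). Cyp2e1, which oxidizes ethanol, had 14 and 3 counts, and Cyp2t4 had 19 and 6. Neither was called. Cyp1a1 had no count in either library and Cyp1a2 had 3 and 0, so that of the AHR targets of family 1 only Cyp1b1 was above the floor.

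Genes of receptors known to control such enzymes were also examined, and their part in the P450 result was not tested. Ahr itself had 509 and 736 counts (log2 ratio 0.91, 0.74 to 1.07), and its partner Arnt 1427 and 1165 (0.08, -0.03 to 0.20). Of 8 AHR pathway genes 2 were called higher in the library labelled intracranial, Nqo1 (2055 and 231 counts) and Aldh3a1 (4272 counts and 1 count), both oxidoreductases, and 1 in the other direction, Ahrr, the AHR repressor, with 29 and 228 counts, a ratio of 10.2-fold. Of 7 xenobiotic receptors only 2 had the 10 counts needed for a call, and neither was called. Nr1i2 (PXR) had 3 and 5 counts, Nr1i3 (CAR) 1 count and 5, and Hnf4a 0 in both. Hepatocyte markers summed to 0.604 and 0.934 CPM, with Alb, Ttr and Tat at 0. Of 35 conjugating and other biotransformation enzymes, 12 were called higher in the library labelled intracranial, for example Gsta4 (6331 and 18 counts), Adh7 (2890 and 4) and Aox4 (1782 counts and 1). The single call in the other direction was Sult1e1, the estrogen sulfotransferase, with 0 and 30 counts. The summed list was 1280.3 and 318 CPM.

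**Figure D4:**
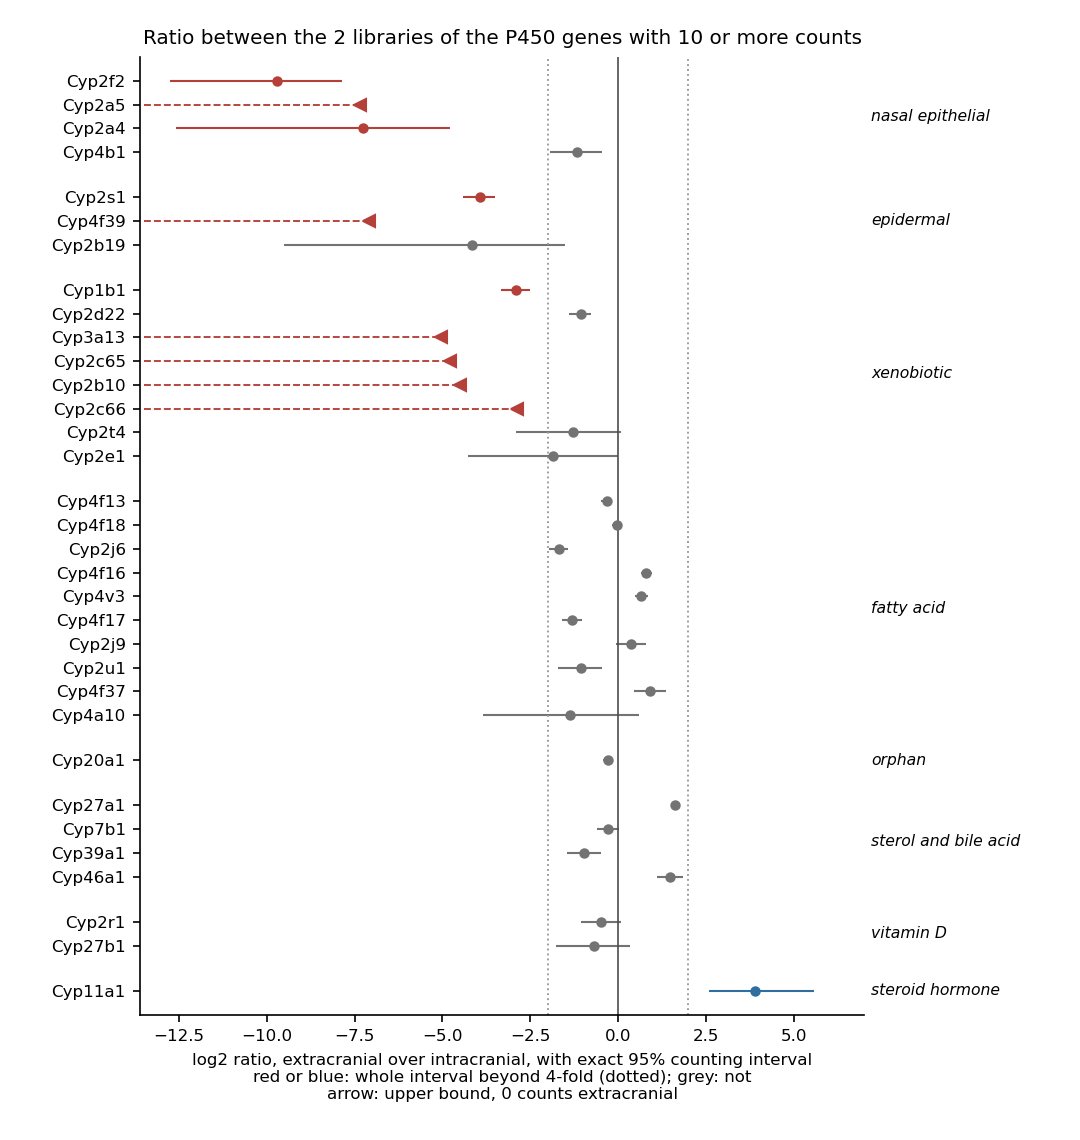
Log2 ratio, extracranial over intracranial, of the 33 P450 genes with 10 or more counts, with exact 95% counting intervals and arrows for the upper bound where the library labelled extracranial had 0 counts. Dotted lines stand for 4-fold. The 10 genes in red lie wholly below the lower line, Cyp11a1 in blue lies wholly above the upper line with 3.89 (2.58 to 5.56), and 22 genes in grey do neither.

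The 24 members acting on fatty acids and their signals held 117 and 112 CPM in sum, and none of the 10 with enough counts was called. Cyp4f18, which inactivates leukotrienes in neutrophils, had 892 and 677 counts, and the log2 ratio was -0.02 (-0.17 to 0.12). Neutrophil markers went in both directions, as given above. Csf3r, a neutrophil marker also found on other myeloid cells, had 692 and 1542 counts. Cyp4f13, a leukotriene and fatty acid hydroxylase, had 904 and 554 counts (-0.33, -0.48 to -0.18). Cyp4f16 and Cyp4v3 leaned to the library labelled extracranial, with 503 and 678 counts (0.81, 0.64 to 0.98) and 467 and 567 counts (0.66, 0.48 to 0.84). Cyp4f37, which shared 12% of its windows with Cyp4f16, had 71 and 103 counts. In the opposite direction lay Cyp2j6, an arachidonic acid epoxygenase, with 570 and 136 counts (-1.69, -1.97 to -1.42), and Cyp4f17 with 449 and 140 (-1.30, -1.59 to -1.03). Cyp2j9 had 99 and 98 counts, Cyp2u1 87 and 32, and Cyp4a10 10 and 3. Cyp20a1 had 1088 and 685 counts, 31.3 and 25.6 CPM, with -0.29 on the log2 scale (-0.43 to -0.15).

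Among the 6 sterol and bile acid members, Cyp27a1 was the most abundant. This mitochondrial sterol hydroxylase, active in bile acid synthesis and in macrophages, had 968 and 2282 counts, 27.9 and 85.3 CPM. The level was 3.06-fold higher extracranially (2.84 to 3.30), short of the 4-fold call. Per kilobase of exon it ranked first of the members there, at 39.2 CPM per kb, ahead of Cyp4f18 (13.6), Cyp20a1 (11.2) and Cyp4f16 (8.26). In the library labelled intracranial the order was Cyp2f2 (31.2), Cyp4f18 (13.8), Cyp20a1 (13.7) and Cyp27a1 (12.8), the last 3 of nearly the same level. Macrophage markers summed to 2870.0 and 8122 CPM, and 7 of 8 had the higher level in the library labelled extracranial, for example Csf1r (13206 and 35302 counts). None of the 7 passed 4-fold, and Cd163 was called in the other direction with 3507 and 480 counts. The part of macrophages in the Cyp27a1 level was not tested. Cyp46a1, the cholesterol hydroxylase of neurons, had 92 and 198 counts (1.48, 1.12 to 1.86). The oxysterol hydroxylases Cyp7b1 and Cyp39a1 had 212 and 134 counts (-0.29, -0.61 to 0.03) and 134 and 53 counts (-0.96, -1.45 to -0.49). Cyp7a1, the rate-limiting enzyme of bile acid synthesis, had no count, and Cyp8b1 had 3 and 0.

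Of the 6 steroid hormone enzymes, 1 was called, higher in the library labelled extracranial, beside 1.51% of all protein-coding genes. Cyp11a1, the mitochondrial enzyme that cleaves the cholesterol side chain and opens steroid synthesis, had 5 counts in the library labelled intracranial against 57, or 0.144 and 2.13 CPM. The library labelled extracranial was thus 14.8-fold higher (5.99 to 47.3). The enzymes that follow it were at or near 0: Cyp17a1 had 8 and 0 counts, Cyp21a1 had 1 count and 5 and shares 12.4% of its windows with the pseudogene Cyp21a2-ps, and Cyp11b1, Cyp11b2 and Cyp19a1, the last making estrogen, had none. Of 17 steroidogenic partner genes, 10 had 10 or more counts and none was called. Star, which carries cholesterol into mitochondria, had 98 and 73 counts (-0.05, -0.51 to 0.40), and Nr5a2, a nuclear receptor of the steroidogenic programme, had 7 and 37 (2.78, 1.59 to 4.19). Nr5a1, the main regulator of that programme, had 2 and 3 counts and Hsd3b1 had 0 in both. Markers of adrenal or gonadal steroidogenic cells held 132 and 107 counts in sum, nearly all from Star and Insl3. Insl3 had 31 and 28 counts and was thus above the floor in both libraries, whereas Hsd3b1 and Mc2r were at 0 in both.

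The 3 vitamin D enzymes were low and none was called. Cyp2r1, which makes the circulating form of vitamin D, had 78 and 43 counts (-0.48, -1.05 to 0.07), Cyp27b1, which activates it, had 27 and 13 (-0.68, -1.76 to 0.33), and Cyp24a1, which degrades it, had 4 and 2. All of these intervals or counts left the direction unresolved. The vitamin D receptor gene Vdr, in contrast, had 761 and 29 counts and was called in the direction of the library labelled intracranial, at 20.2-fold (14.0 to 30.4). It was the single call among 6 vitamin D pathway genes.

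The redox partners on which the enzymes depend were present in both tumors. None of 8 was called. Por, which feeds electrons to P450 enzymes of the endoplasmic reticulum, had 2078 and 600 counts, 59.8 and 22.4 CPM, with -1.42 on the log2 scale (-1.55 to -1.28). The mitochondrial pair Fdx1 and Fdxr, which serve Cyp11a1 and Cyp27a1, had 519 and 338 counts (-0.24, -0.44 to -0.04) and 409 and 332 counts (0.08, -0.14 to 0.29).

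Of 9 P450 genes whose symbols fall outside the rule, 3 had 10 or more counts. Cyp51, the sterol demethylase of cholesterol synthesis, had 3654 and 508 counts and was called higher in the library labelled intracranial (log2 -2.47, -2.61 to -2.34). Tbxas1, thromboxane synthase of platelets and macrophages, had 739 and 2601 and was called in the other direction (2.19, 2.07 to 2.31). Ptgis, prostacyclin synthase, had 7818 and 6453 counts and was not called (0.10, 0.05 to 0.15).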

How the data were processed

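Per the labels and the study's methods, the authors took RNA from tumor tissue, selected poly(A) RNA, made directional libraries, sequenced single reads of 72 bases, aligned them with STAR 2.7.9a to GRCm39 with Ensembl 104 and counted reads per gene with featureCounts. Use of strand and handling of reads with several alignments were not stated. The deposited values were raw counts per Ensembl gene in 1 column per tumor. Symbols (52083 IDs, 93.99%), biotypes, exon lengths, gene order and transcripts came from GENCODE M21, which is older than the authors' annotation, and promoters from RefSeq on GRCm38.p6.

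Libraries were scaled with TMM of edgeR 4.0.16 in R 4.3.3 (factors 1.006 and 0.994). The quasi-likelihood test could not be fitted with 1 library per location, and no p-value is given. Levels have Clopper-Pearson 95% intervals and ratios conditional exact binomial 95% intervals (scipy 1.17.1), over 21977 genes with 10 or more counts. As reads were not tagged by molecule and need not be independent, intervals and floors cover counting error only. The scripts were tested on simulated data. For the median, counts of 3 or fewer were set to 3. A ratio against 0 counts is a bound at 3 counts per library. Members with 1 CPM in a library or a call, and those of the functional groups, are named. Members, groups and lists were chosen with earlier results of these data known, and their overlap with such results is no independent support. The cholesterol synthesis list, of which some genes are not reported here, and Smarcb1 were chosen after values were seen. Alternatives were DESeq2 1.42.0 size factors, total counts, upper quartile, other count minimums, call rules and floors, a prior count of 2 and an assumed coefficient of variation of 0.4.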

Additional observations from a re-analysis of the deposited data

How the results depend on the processing

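The 10 members called higher in the library labelled intracranial were the same 10 under DESeq2 size factors, total counts, upper quartile scaling, no count minimum and an assumed coefficient of variation of 0.4. With 100 or more counts 9 remained, without Cyp2c66. An interval beyond 2-fold called 13, adding Cyp2b19, Cyp2j6 and Cyp4f17, and the ratio alone 11, adding Cyp2b19. In the other direction the count was 0 with 100 or more counts, since Cyp11a1 had fewer, and 3 with an interval beyond 2-fold, adding Cyp27a1 and Cyp46a1. The median log2 ratio was -1.06 with a prior count of 2. The other scalings moved log2 ratios by -0.02 to 0.04 and turned no called member. Members above the floor numbered 31 and 21 with more than 10 counts, and 30 and 20 above 0.5 CPM. No paired analysis was possible because there was 1 library per location, and for the same reason no library could be left out. Variation between animals is not covered by any value here, and depth limits the members under 10 counts.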

Other observations

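Cyp51 works in cholesterol synthesis, and 17 genes of that pathway, chosen after values were seen, were examined beside it. All 17 had log2 ratios below 0, with a median of -1.73, and their sum was 970.7 CPM in the library labelled intracranial, against 301.5 CPM. Of these, 3 were called: Cyp51, Fdft1 (3223 and 448 counts) and Idi1 (3402 and 482). Msmo1, a sterol oxidase of the pathway, had 4693 and 1087 counts, and Ebp lay nearest to 0 with a log2 ratio of -0.12 (-0.23 to -0.00). Since the list was chosen with its values in view, these are a description of 2 libraries.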
